A study of Mus musculus with 7 samples.

Results

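The cells described here were chosen from 1 droplet library of a mouse nose by 5 marker genes of the terminal nerve and of neurons that make gonadotropin-releasing hormone 1: Gnrh1 itself, Gal, Cntn2, Prph and Nhlh2. A cell was taken when it held at least 1 UMI (unique molecular identifier, 1 per captured transcript) of at least 3 of the 5 genes. Of the 1111 kept cells of the library, 56 met this rule (5.04%, 95% exact binomial interval 3.83 to 6.50), out of 31465 kept cells in the 6 captures of the study. They are called marker-positive cells below. Per the labels' extract protocol they came from 1 nose, of a mouse at embryonic day 14.5 that carried the alleles Prokr2em1(cre)Cfe (on B6;SJL) and Gt(ROSA)26Sortm14(CAG-tdTomato)Hze, a line the labels also write ProKR2iCre/R26tdTomato. In such a mouse Cre recombinase is made where Prokr2 is transcribed and switches on the red protein tdTomato, which then also marks descendants of those cells. The protocol states that the cell suspension of this nose gave a sorted and an unsorted dataset, here Prokr2Cre libraries 1 and 2, whereas the series' design text and the file names write of noses in the plural. Only the name of the deposited file says that library 2, used here, is the sorted one, and sorting can set the share of any cell type in it. The other noses were wild-type CD1 IGS (WT) of the same age, with 5 libraries. WT replicates 3 and 4 shared 7386 cell barcodes and count as 1 capture, whereas other pairs of libraries shared at most 34.

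The terminal nerve is a cranial nerve that runs from the nose along the olfactory nerves into the forebrain. Neurons that make Gnrh1 are born in the nasal placode and migrate along its fibres into the brain, where they later control the pituitary hormones of reproduction. Loss of this migration, together with loss of smell, is known in people as Kallmann syndrome, and the receptor gene Prokr2 is one of the genes linked to it. Cntn2 encodes contactin 2, an adhesion molecule of growing axons, Prph the intermediate filament peripherin, Gal the neuropeptide galanin and Nhlh2 a basic helix-loop-helix transcription factor.

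The label of Gnrh1 neurons did not hold for most of these cells. Gnrh1 (chr14:67745181-67749439, plus strand, mm10, protein-coding) had a UMI in 10 of 56 cells (17.9%, interval 8.91 to 30.4) and at least 10 UMIs in 2 of them, with 104 in the highest. By contrast Prph was present in 55 cells, Nhlh2 in 50, Cntn2 in 45 and Gal in 41. Per cell, Prph ranged from 0 to 52 UMIs with a median of 15, Nhlh2 from 0 to 13 with a median of 3, Gal from 0 to 31 with a median of 2, and Cntn2 from 0 to 10 with a median of 1. These 5 genes chose the cells, so their levels are a description. The rule admitted 32 cells with exactly 3 of the genes, 15 with 4 and 9 with all 5, whereas 89 kept cells just outside it held 2. Marker-positive cells also held olfactory neuron genes: 51 of 56 had at least 1 UMI of Gng8, a G-protein subunit of immature olfactory and vomeronasal neurons, with at least 2 of the growth-cone gene Gap43. In 91 cells of the library with at least 10 UMIs of both Col1a1 and Col3a1 and no Stmn2, a type that should lack both genes, 18 held Gng8 (19.8%, 12.2 to 29.4) and 53 held Gap43 (58.2%), at a median depth of 15042 UMIs against 22840. After thinning to 2000 UMIs per cell, Gng8 was held by 0 of these 91 cells, which allows up to 3.30%, and by 39 of the 56. Gap43 was still held by 20 of the 91 (21.98%, 13.97 to 31.88), and by all 56. All 56 held the neuronal gene Stmn2, from 31 to 199 UMIs per cell, and 5 held Col1a1 or Col3a1. Doublets were not removed. They are therefore described by their genes and given no cell type name.

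Levels were compared with 161 cells of the same library that held the same Gng8 and Gap43 minimums but at most 2 of the 5 genes, called comparison cells. The UMIs of each class were summed and scaled to CPM, UMIs per 1000000 UMIs of the class, over 1345256 UMIs in marker-positive and 2909059 in comparison cells. There was 1 library and no replicate, so no test was possible. Intervals (95%, exact Poisson for levels and exact conditional binomial for ratios) cover counting error only and not differences between cells or mice. Comparison cells were not all neurons. Stmn2 had a UMI in 145 of them, and 109 held neither of the connective tissue collagens Col1a1 and Col3a1. Col1a1 was at 141 CPM and Col3a1 at 210 CPM there, against 7.43 CPM of each in marker-positive cells. The dividing-cell gene Top2a was at 101 CPM against 5.20 CPM. Median depth was 22840 UMIs per marker-positive cell and 18390 per comparison cell, and the rule itself favours deep cells.

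**Figure D1:**
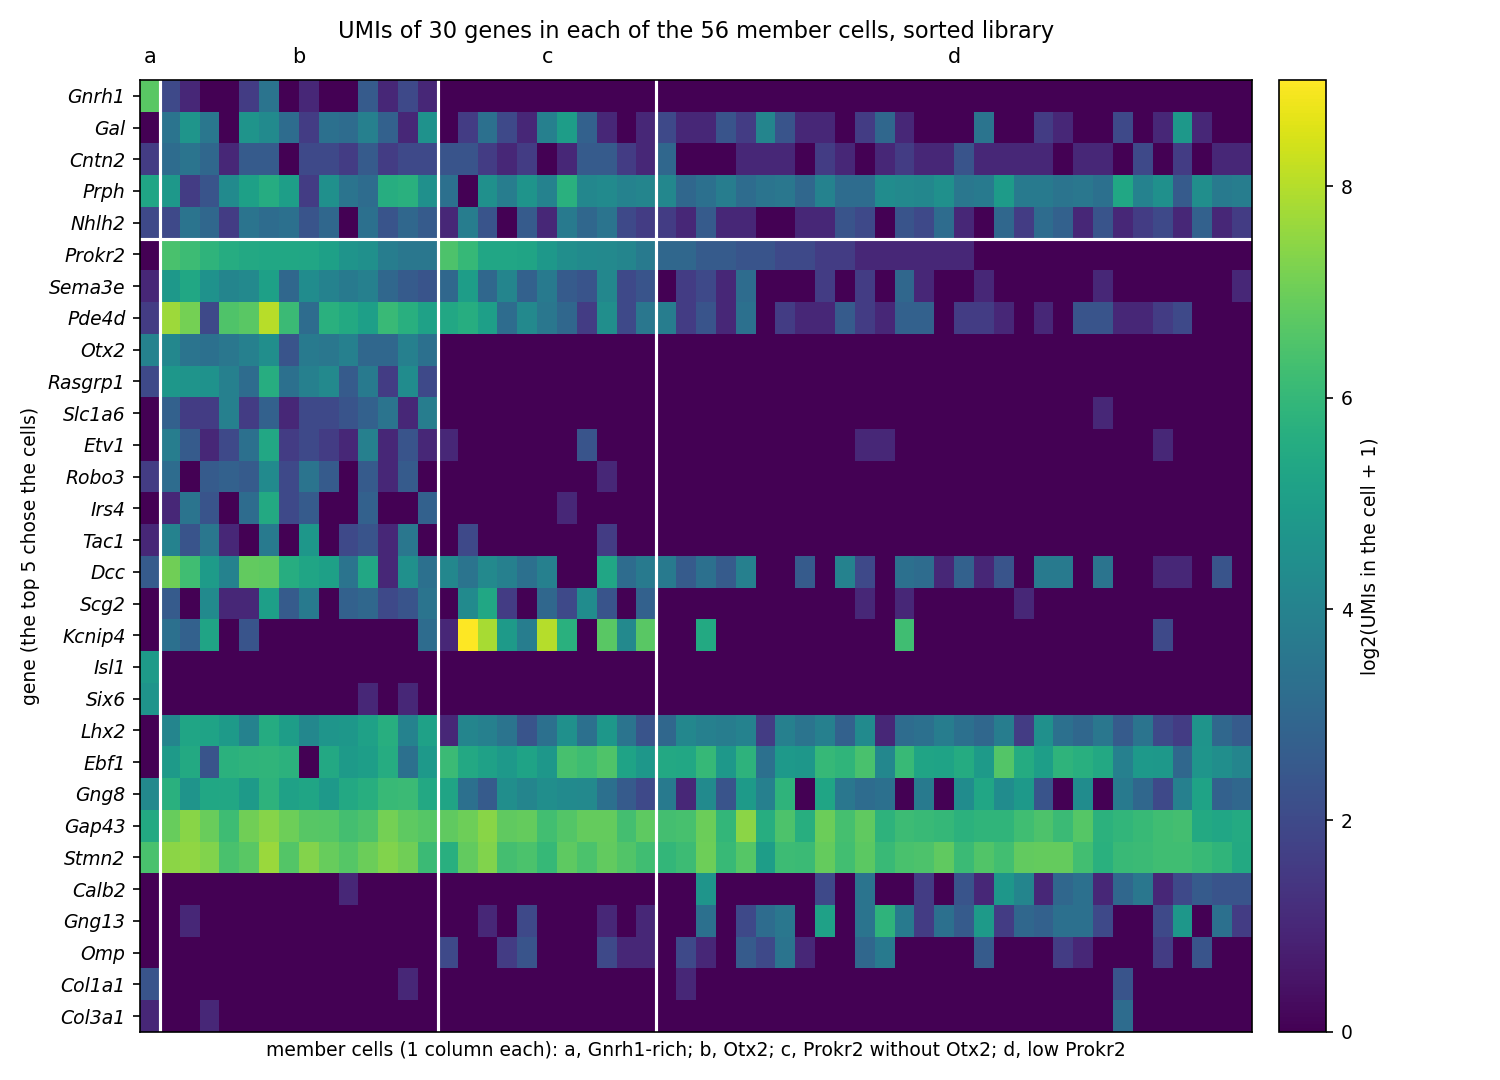
UMIs of 30 genes (rows) in each of the 56 marker-positive cells (columns), coloured by log2(UMIs + 1); the top 5 rows are the genes that chose the cells. White lines separate the Gnrh1-rich cell (a), 14 cells with Otx2 (b), 11 cells with at least 10 Prokr2 UMIs and no Otx2 (c) and 30 cells with at most 7 Prokr2 UMIs (d); Isl1 is seen in column a alone.

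Prokr2, which the rule did not use, was 8.25-fold higher in marker-positive cells (interval 7.17 to 9.51), at 717 CPM against 87.0 CPM. It encodes prokineticin receptor 2, and its gene (ENSMUSG00000050558) spans chr2:132337733-132385447 on the minus strand of mm10. Of the 56 cells, 41 held it and 15 did not, with a lowest value of 0, a median of 5 and a highest of 88 UMIs. The groups overlapped, since 42 of the 161 comparison cells also held Prokr2. Of the 33 kept cells with at least 10 Prokr2 UMIs, 25 were marker-positive and another 6 held exactly 2 of the genes. After every cell was thinned to 2000 UMIs, 44.6% (31.3 to 58.5) of marker-positive and 9.38% (5.34 to 14.99) of comparison cells held Prokr2, and the shares without thinning were 73.2% and 26.1%. Of the 91 collagen-rich cells without Stmn2, 3 held it (3.30%, 0.685 to 9.33). The ratio fell to 6.32 against comparison cells without the 2 collagens. It was larger against the 34 comparison cells with none of the 5 genes, where Prokr2 was at 8.62 CPM. It was also larger against all cells with at least 5 Stmn2 UMIs, and both ratios are given in the closing section. Without the 51 marker-positive cells that also held Gng8 and Gap43, 5 cells with 5 Prokr2 UMIs were left, and the ratio was 0.599 (0.193 to 1.42).

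Prokr2 was higher in cells with more of the marker genes. Among kept cells with Gng8 and Gap43, it was at 8.62 CPM (2.80 to 20.1) in the 34 cells with none of the 5 genes, 39.1 CPM (26.5 to 55.4) in 50 cells with 1 and 141 CPM (123 to 161) in 77 cells with 2. It was at 632 CPM (569 to 699) in 28 cells with 3, 696 CPM (612 to 787) in 14 cells with 4 and 1131 CPM (1013 to 1258) in 9 cells with all 5. The intervals at 3 and 4 genes overlapped, and those of every other pair stood apart. Median depth was also higher with each number, from 15765.5 UMIs at 0 to 29341 at 5, and its part in the Prokr2 levels was not tested. Across the 56 cells the Spearman rho of Prokr2 CPM with total UMIs was 0.59, given as a description of cells of 1 library.

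**Figure D2:**
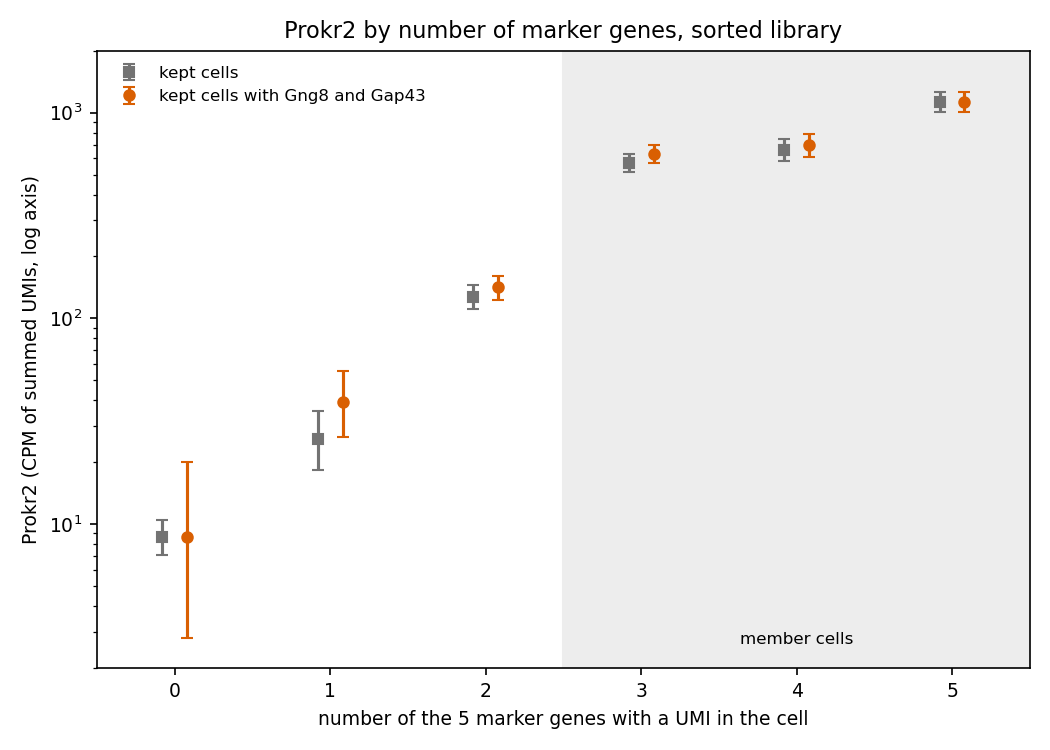
Prokr2 level (CPM of summed UMIs, log axis) against the number of the 5 marker genes with a UMI in the cell, for all kept cells (grey squares) and for those with Gng8 and Gap43 (orange circles); bars are 95% Poisson intervals and grey shading covers the marker-positive cells. Among Gng8 and Gap43 cells the level goes from 8.62 CPM at 0 genes to 1131 CPM at 5.

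Over 56 cells, the gene whose CPM ranked most like that of Prokr2 among 5258 genes was Sema3e (Spearman rho 0.84). It was followed by Gm31819 (0.76), Pde4d (0.75), Pcsk1n (0.74) and Fam155a (0.73), then Ntm (0.72), Negr1 (0.72), Ptprn2 (0.71), Kcnq3 (0.70) and Csmd2 (0.69). The most opposite was the RNA-binding gene Rbm3 (-0.72). All these values share 1 library and its depth. The upstream sequences of Prokr2 and of Sema3e, the closest by this measure, are shown with that of Prph, which all but 1 cell held and which was only 1.63-fold higher than in comparison cells. Each is the 250 bases before the gene's start in RefSeq on GRCm38.p6, printed along the gene's strand. Capitals mark each match to the E-box CANNTG, the letters that basic helix-loop-helix factors such as Nhlh2 are known to recognise, which reads alike on both strands. Prokr2 lies at chr2:132385448-132385697 (minus), Sema3e at chr5:14025026-14025275 (plus) and Prph at chr15:99054924-99055173 (plus).
Prokr2: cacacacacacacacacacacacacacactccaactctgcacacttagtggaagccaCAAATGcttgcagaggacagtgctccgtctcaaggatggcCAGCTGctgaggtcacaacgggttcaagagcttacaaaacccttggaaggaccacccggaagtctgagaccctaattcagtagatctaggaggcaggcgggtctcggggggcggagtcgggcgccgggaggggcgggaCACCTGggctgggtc
Sema3e: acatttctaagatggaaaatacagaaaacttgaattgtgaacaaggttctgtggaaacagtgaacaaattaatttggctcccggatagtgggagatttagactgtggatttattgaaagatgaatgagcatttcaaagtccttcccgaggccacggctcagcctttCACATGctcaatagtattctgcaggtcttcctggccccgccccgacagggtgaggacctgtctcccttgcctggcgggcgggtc
Prph: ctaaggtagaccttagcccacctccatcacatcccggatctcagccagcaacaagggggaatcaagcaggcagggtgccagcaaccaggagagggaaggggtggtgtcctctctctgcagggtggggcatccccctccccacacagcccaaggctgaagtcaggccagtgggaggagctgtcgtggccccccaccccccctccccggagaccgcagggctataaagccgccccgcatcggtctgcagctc
The window of Prokr2 held 3 matches, that of Sema3e 1 and that of Prph 0. Of 32851 promoter windows of the same length, 66.2% held at least 1, so a match is a common feature and describes letters alone.

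Across the genome, 4341 genes reached 50 CPM in either class. Of these, 47 (1.08%) were at least 4-fold higher in marker-positive cells and 89 (2.05%) at least 4-fold lower, with a median ratio of 1.02. The 47 include Gnrh1, Cntn2 and Gal, which chose the cells. The counts of higher and lower genes depended on the comparison cells. They were 48 and 23 against those without the 2 collagens, and 635 and 601 against the 34 with none of the 5 genes. Against all cells with at least 5 Stmn2 UMIs and at most 2 of the 5 genes they were 79 and 312. Apart from Cntn2 at 15.4-fold (9.23 to 27.3), which chose the cells, the highest ratios among genes held by at least 50% of the 56 cells followed Prokr2. They were those of the predicted gene Gm31819 (8.02, 5.65 to 11.6), the calcium-dependent membrane protein gene Cpne5 (7.84, 6.20 to 10.0), the cAMP phosphodiesterase Pde4d (7.16, 6.42 to 7.98) and the secreted guidance factor Sema3e (6.64, 5.42 to 8.20). Sema3e was at 285 CPM against 43.0 CPM and was held by 37 of 56 cells, with a median of 2.5 and a highest of 40 UMIs. Pde4d was at 1067 CPM against 149 CPM, with a median of 4 UMIs per cell and a highest of 260. Both were thus uneven among the marker-positive cells.

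**Figure D3:**
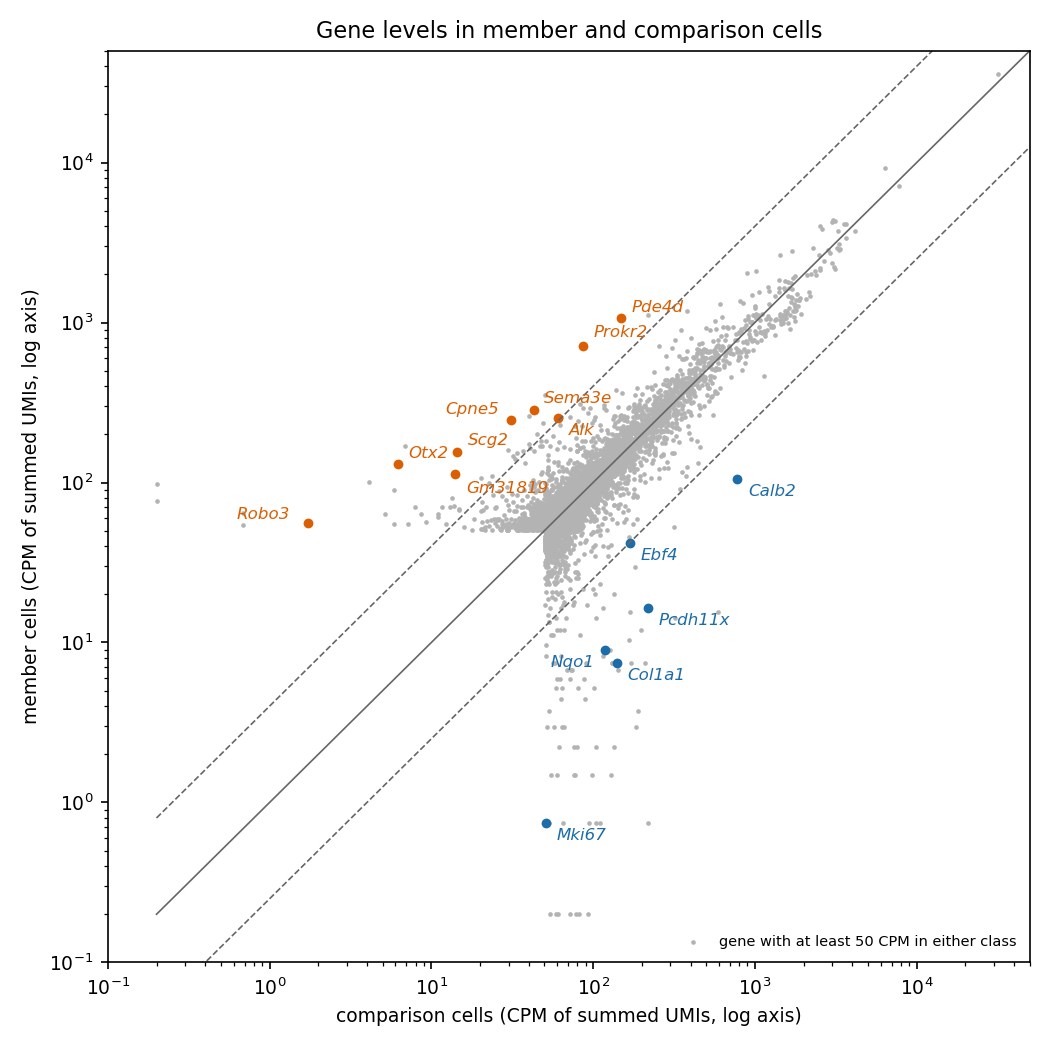
Level of each gene with at least 50 CPM in either class, in the 56 marker-positive cells (vertical) and the 161 comparison cells (horizontal), as CPM of summed UMIs on log axes; the solid line marks equal levels, dashed lines 4-fold differences, and values under 0.2 CPM are drawn at 0.2. Prokr2 (717 against 87.0 CPM) and Pde4d lie above the upper dashed line and Calb2 (105 against 779 CPM) below the lower one.

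Next among the 25 highest ratios were Klhdc8b (5.41) and Ripor2 (5.28). The ratio was 4.28 (3.33 to 5.53) for Sema6d, a membrane-bound semaphorin, 4.36 (3.22 to 5.95) for Dscaml1, a homophilic adhesion molecule, and 4.48 (3.51 to 5.75) for Nell2, a secreted ligand of Robo3. Alk, a receptor tyrosine kinase, was at 252 CPM against 60.8 CPM (4.14-fold, 3.44 to 5.00). It was at 3.18-fold against comparison cells without the collagens. Under the 4-fold mark lay the teneurin Tenm1 (3.74, 3.19 to 4.40), the adhesion molecule Ntm (3.68, 3.06 to 4.45) and the axon gene Shtn1 (3.59, 3.02 to 4.28), and Shtn1 was held by 89.3% of the 56 cells. Others were Mageh1 (4.01), Cxxc5 (3.62) and Gm26871 (3.50), and the 25 ran down to 3.49, that of Mtus2.

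Among genes held by at least 50% of comparison cells, the lowest ratio was that of Calb2, which encodes the calcium-binding protein calretinin. It was at 105 CPM against 779 CPM (0.134, 0.113 to 0.159), and 20 of 56 marker-positive cells held it, against 91 of 161 comparison cells. Ebf4, an Ebf transcription factor, was at 41.6 CPM against 170 CPM (0.245, 0.182 to 0.323). Both ratios lay on the other side of 1 against the 34 comparison cells with none of the 5 genes. There Calb2 was at 2.53 (1.63 to 4.08) and Ebf4 at 2.41 (1.22 to 5.31). Without the collagen-holding comparison cells the 2 ratios were 0.0997 and 0.189. The 15 lowest ratios of these genes ran up to 0.350, that of Myo6, and several moved toward or past equality in that setting: Tpm1 from 0.266 to 0.786, Trps1 from 0.294 to 0.740, Nfia from 0.313 to 0.572 and Nme2 from 0.293 to 1.78.

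Among the genes of the Gnrh1 system and those linked to Kallmann syndrome, 11 of 36 reached 50 CPM in either class. Prokr2 and Sema3e were at least 4-fold higher and Fgfr1 was at least 4-fold lower, beside 1.08% and 2.05% of all genes compared, and the median was 1.23 beside 1.02. Fgfr1, a fibroblast growth factor receptor, was at 9.66 CPM against 50.9 CPM (0.190), but at 1.83 (0.755 to 4.505) against comparison cells without the collagens. Of the guidance receptors, Dcc, which binds netrins, was at 714 CPM against 256 CPM (2.78, 2.53 to 3.07), and the semaphorin receptors Nrp1 (1.72, 1.48 to 2.00) and Nrp2 (1.04, 0.897 to 1.20) differed less. Dcc was uneven, with 677 of its 960 UMIs in 14 cells with Otx2, described below (1562 CPM). It was at 499 CPM in 11 other cells with Prokr2 and at 225 CPM in 30 cells with little Prokr2. Sema3a, a secreted ligand of Nrp1, was at 56.5 CPM against 155 CPM (0.365, 0.283 to 0.467). The ligand of Prokr2, Prok2, had 1 UMI in each class, and Tacr3, a neurokinin receptor, had none in marker-positive cells.

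Of 36 neuropeptide and granin genes, 11 were compared, 2 were at least 4-fold higher and 1 lower, beside 1.08% and 2.05% of all genes, and the median ratio was 1.91 beside 1.02. Scg2, a granin of secretory vesicles, was at 156 CPM against 14.4 CPM (10.8, 7.73 to 15.4) and present in 23 cells. Tac1, the precursor of substance P, was at 69.9 CPM against 7.91 CPM (8.84, 5.55 to 14.6) and present in 13 cells. Of the other granin pathway genes, Scg3 (3.36, 2.86 to 3.95) and Pcsk1n (3.07, 2.84 to 3.32) were also higher, and Chga was near equal at 297 CPM against 306 CPM. Cartpt was lower (0.191, 0.107 to 0.319). The 34 comparison cells with none of the 5 genes held no Cartpt UMI, however. Against these its ratio was at least 2.30, from 16 UMIs in marker-positive cells. The vesicular glutamate transporter Slc17a6 was held by 45 of 56 cells (187 CPM against 109 CPM, 1.72, 1.45 to 2.03). Chat, Th and Gad2, which mark cholinergic, catecholamine and GABA neurons, had no UMI in marker-positive cells. In comparison cells Chat had 0 UMIs, and Th and Gad2 had 2 each. Of their lists, 10 of 16 cholinergic, 7 of 15 monoamine and 5 of 24 GABA and glycine genes had none in marker-positive cells. Ache, of the cholinergic list, was 1.96-fold higher (1.54 to 2.49), Chrna7 had 18 UMIs against 4, and Gad1 had 2 against 15.

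Of 97 neuronal transcription factors, 28 were compared, with 4 at least 4-fold higher and 2 lower, beside 1.08% and 2.05% of all genes, and a median of 0.935 beside 1.02. Higher were Otx2 (21.0, 12.9 to 36.3), St18 (12.3, 7.03 to 22.9), Etv1 (5.99, 4.12 to 8.87) and Lmo1 (5.37, 4.17 to 6.97). Otx2 is a homeobox gene of the developing forebrain and olfactory placode, and 15 of 56 cells held it. Lower were Ebf4 and Rora, and the latter was at 1.12 (0.552 to 2.24) against comparison cells without the collagens. The olfactory factors Lhx2 (621 against 340 CPM, 1.82, 1.66 to 2.00) and Ebf2 (562 against 589 CPM, 0.954, 0.875 to 1.04) were within 2-fold. Isl1, a LIM-homeodomain gene known in Gnrh1 neurons, had 29 UMIs, all in 1 cell.

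Of 43 axon guidance genes, 18 were compared, 2 were at least 4-fold higher and 3 lower, beside 1.08% and 2.05% of all genes, and the median ratio was 0.664 beside 1.02. Robo3, a receptor known from axons that cross the midline, was at 55.8 CPM against 1.72 CPM (32.4, 13.3 to 102.8). The other higher gene was Sema6d, and the lower ones were Slit3, Sema5a and Epha3. Against comparison cells without the collagens, however, these 3 stood at 1.55 (0.0197 to 121, from 1 UMI in each class), 4.90 (1.88 to 14.98) and 1.99 (0.659 to 6.28). The other Robo genes were lower: Robo1 was at 152 CPM against 270 CPM (0.561, 0.479 to 0.656) and Robo2 at 462 CPM against 1134 CPM (0.408, 0.374 to 0.444). Of 31 compared genes of neurofilaments, microtubules and growth, none was 4-fold apart, beside 1.08% higher and 2.05% lower over all genes, and the median was 1.44 beside 1.02. Stmn2 itself was 1.59-fold higher (1.53 to 1.65).

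Markers of other cells were counted as a whole. Of 12 autonomic markers 10 had no UMI in marker-positive cells, and the list summed to 5.20 CPM against 45.0 CPM. Of 13 forebrain markers 10 had none, but the list summed to 46.1 CPM against 5.84 CPM. Trigeminal and somatosensory markers summed to 25.3 CPM against 39.9 CPM with 7 of 13 at 0. Glia markers summed to 40.9 CPM against 26.8 CPM with 5 of 11 at 0, Sox10 among them, and mesenchyme markers to 32.7 CPM against 839 CPM with 2 of 10 at 0. Muscle markers summed to 23.8 CPM against 121 CPM with 5 of 8 at 0, and immune markers to 1.49 CPM against 1.38 CPM with 6 of 7 at 0. Endothelial markers summed to 3.72 CPM against 8.25 CPM and erythroid markers to 3.72 CPM against 4.81 CPM. Nasal epithelium markers were higher as a sum, at 928 CPM against 633 CPM, with 5 of 10 at 0. Vomeronasal markers summed to 980 CPM against 892 CPM, and olfactory progenitor markers to 638 CPM against 659 CPM. Olfactory neuron markers summed to 5636 CPM against 4392 CPM. Of these 24 genes 15 were compared, with a median of 0.767, and 1 was 4-fold lower, beside 2.05% of all genes: Nqo1, an enzyme of dorsal olfactory neurons, at 8.92 CPM against 119 CPM (0.0752, 0.0385 to 0.133). Nqo1 was not lower against the 34 comparison cells with none of the 5 genes. There its ratio was 1.29, from 12 UMIs against 4, and the counting interval included 1. Against all 161 comparison cells, the highest ratios of the list were those of Gnas (2.29, 2.17 to 2.41) and Pcp4l1 (2.05, 1.71 to 2.45). Beyond the values with other choices of comparison cells, the part of other cells in the ratios above was not tested.

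The marker-positive cells were not uniform. The groups that follow were drawn by Gnrh1, Otx2 and Prokr2 after the values had been seen, so all of their values are descriptions. A single cell stood apart by Gnrh1, with 104 UMIs of it among 21570. This cell alone held Isl1 (29 UMIs), and it had 24 UMIs of Six6, a homeobox gene known in the hypothalamus and eye, 15 of Otx2 and 38 of Prph. Neither Prokr2 nor Gal had a UMI in it, nor did Lhx2 and Ebf1, which 55 and 54 of the 56 cells held. It also carried 4 UMIs of Col1a1, and Ibsp, a bone matrix gene absent from the other marker-positive cells, was at 1762 CPM. Whether it held RNA of a second cell was not tested. When this cell and the cell with 10 Gnrh1 UMIs were summed and set against the 51 cells with at most 2, 264 of 5035 genes (5.24%) were at least 4-fold higher and 210 (4.17%) at least 4-fold lower. The 3 cells between these limits were left out of both sums. Isl1 and Six6 were among the highest, and within the summed cells each had all of its UMIs in the Gnrh1-rich cell, so these counts describe single cells. Of the 26 Six6 UMIs over all 56 cells, the other 2 lay in 2 Otx2 cells.

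Otx2 marked 14 further cells, each with 4 to 21 Otx2 UMIs. Of the 26 kept cells of the library with at least 4 Otx2 UMIs, 15 were marker-positive, the Gnrh1-rich cell included, and the rest are not described here. All 14 also held Prokr2 (11 to 85 UMIs, median 39.5), Rasgrp1 (2 to 48, median 14), Sema3e (4 to 40, median 15.5), Slc1a6 (1 to 14) and Etv1 (1 to 41). Rasgrp1, an activator of Ras proteins, had no UMI in the 41 marker-positive cells without Otx2, and at 521 CPM its level was at least 155-fold higher. Gnrh1 appeared in 9 of these 14 cells, with a highest value of 10, and in no marker-positive cell without Otx2. All 9 cells that held the full set of 5 marker genes were in this group. Its median depth was 28879 UMIs, against 23666 and 19800.5 in the groups below, and its deepest cell had 55346 UMIs.

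Over 4513 genes compared between the Otx2 cells and those 41, 130 (2.88%) were at least 4-fold higher and 123 (2.73%) at least 4-fold lower. Higher were Robo3 (166 against 1.12 CPM, held by 11 of 14 cells), Irs4 (198 against 1.12 CPM, 9 cells), Tac1 (203 against 5.62 CPM, 10 cells) and Bmp4 (104 against 1.12 CPM, 12 cells). These encode an axon guidance receptor, an insulin receptor substrate, a neuropeptide precursor and a secreted morphogen. Several of the levels in the 41 cells rest on 1 UMI, and 43 of the 86 Irs4 UMIs came from 1 cell.

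Some genes of olfactory and vomeronasal neurons were lower in the Otx2 cells and others were not. Gng13, an olfactory G-protein subunit, was at 2.31 CPM against 306 CPM, Spock1, a proteoglycan, at 6.92 CPM against 546 CPM, and Robo2 at 27.7 CPM against 684 CPM. Robo2 was found in 5 of the 14 cells with at most 5 UMIs, whereas 29 of 30 low-Prokr2 cells held it. The homeobox gene Uncx had no UMI in the Otx2 cells, which allows up to 6.92 CPM (3 UMIs), against 180 CPM. Omp, the marker of mature olfactory neurons, also had none. Olfactory receptor genes (Olfr, a large family of similar genes between which reads can be split) summed to 80.8 CPM, against 1474 CPM in comparison cells. Lhx2, on the other hand, was held by all 14 cells at 951 CPM, against 443 CPM in the 11 cells and 490 CPM in the 30 cells described below. Gng8 was held by all 14 at 1410 CPM, against 577 and 707 CPM. Of the G-protein alpha subunits known in vomeronasal neurons, Gnai2 was at 468 CPM against 273 and 69.1 CPM, and Gnao1 at 233 CPM against 234 and 265 CPM.

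**Figure D4:**
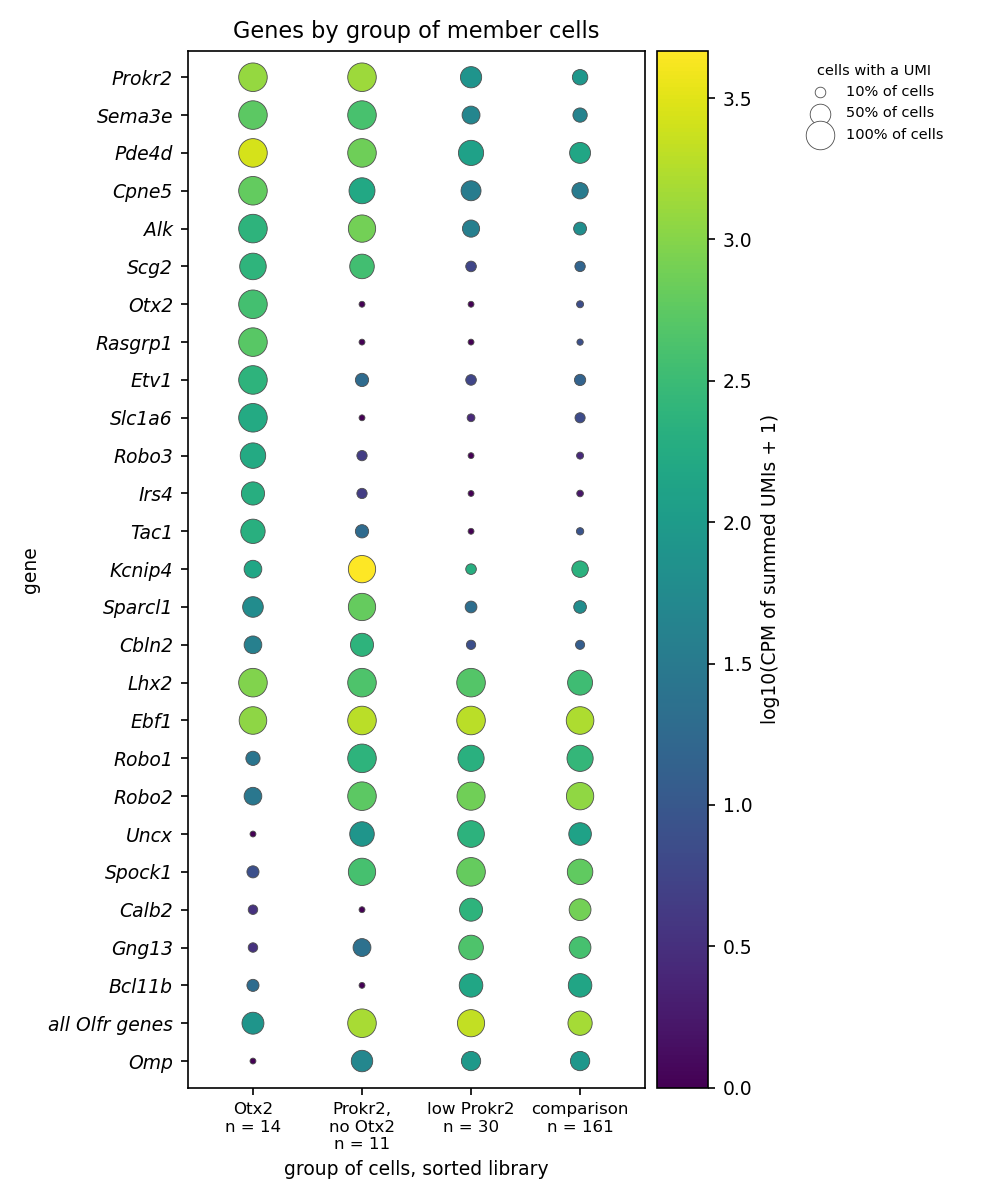
Level (colour, log10 of CPM + 1) and share of cells with a UMI (circle size) of 27 genes or gene groups in the 14 Otx2 cells, the 11 cells with Prokr2 and no Otx2, the 30 low-Prokr2 cells and the 161 comparison cells. Rasgrp1 fills the first column and is empty in the next 2; Calb2 and Bcl11b are empty in the second column, and Uncx and Omp are empty in the first.

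Another 11 cells held 12 to 88 Prokr2 UMIs (median 27) without any Otx2 or Rasgrp1. Their Prokr2 level was 1346 CPM, beside 1239 CPM in the Otx2 cells. At least 10 Prokr2 UMIs chose these 11 cells and not the Otx2 cells, so the 2 levels are a description. All 11 held Sema3e (3 to 31 UMIs, median 7). Kcnip4, a partner of A-type potassium channels, was at 4651 CPM in them and ranged from 0 to 513 UMIs per cell. It was at 148 CPM in Otx2 cells, 197 CPM in low-Prokr2 cells and 218 CPM in comparison cells. In contrast to the Otx2 cells, all 11 held Robo2 (546 CPM), 10 held Spock1 (383 CPM) and all held olfactory receptor UMIs (3 to 164, median 31).

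Between these 11 and the 30 marker-positive cells with at most 7 Prokr2 UMIs, 89 of 4417 genes (2.01%) were at least 4-fold higher and 70 (1.58%) at least 4-fold lower. Higher were the granin Scg2 (358 against 4.93 CPM), the synapse organiser Cbln2 (234 against 6.58 CPM), the matrix gene Sparcl1 (638 against 19.7 CPM), the netrin receptor Unc5d (322 against 11.5 CPM, with 49 of its 91 UMIs in 1 cell) and Alk (765 against 36.2 CPM, with 119 of its 216 UMIs in 1 cell). Lower were Gng13 (21.3 against 437.5 CPM), Calb2 and Bcl11b. The last encodes a zinc-finger factor of vomeronasal neurons and was held by 20 of 30 low-Prokr2 cells at 146 CPM. Calb2 was held by 19 of these 30 cells at 230 CPM. Neither had a UMI in the 11 cells, which allows up to 10.6 CPM.

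The 30 low-Prokr2 cells lay close to the comparison cells in some of the genes named for the other groups and below or above them in others. Their Prokr2 level, 78.9 CPM beside 87.0 CPM in comparison cells, follows from how they were chosen. Comparison cells had no limit on Prokr2. Sema3e, which ranked most like Prokr2 (rho 0.84), was at 47.7 CPM in the 30 cells and 43.0 CPM in comparison cells. Cpne5 was at 32.9 and 31.3 CPM, and Gng13 at 437.5 and 390 CPM. Lower were Calb2 at 230 and 779 CPM, Unc5d at 11.5 and 52.6 CPM, Sparcl1 at 19.7 and 60.2 CPM, Scg2 at 4.93 and 14.4 CPM and Bmp4 at 1.64 and 15.5 CPM. Higher were Uncx at 225 and 130 CPM, Lhx2 at 490 and 340 CPM and the olfactory receptor genes, which summed to 2118 and 1474 CPM. Of the 30, 24 held exactly 3 marker genes and 6 held 4.

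Cells that met the same rule in the other captures were few: 25 in WT replicate 1 (0.321% of kept cells, interval 0.208 to 0.473), 3 in WT replicate 2, 5 in WT replicate 4, 2 in WT replicate 5 and 5 in Prokr2Cre library 1 (0.279%, 0.0908 to 0.651). Shares of library 2 can be set by the sort, and its median depth of 13073 UMIs per kept cell lay above those of the WT captures (5126.5 to 11371). Too few captures held enough such cells for a test over captures. The 25 cells of WT replicate 1 had no Prokr2 UMI and 1 Gnrh1 UMI in all. They were uneven: the 4 cells with the most Prph (60 to 138 UMIs, at most 13 in the other 21), singled out after their values were seen, held 410 of their 486 Prph UMIs, 156 of 198 Gal UMIs and 67 of 71 Isl1 UMIs. All 18 UMIs of Pou4f1, a POU-domain factor of sensory neurons, also lay in these 4 cells, which held no Lhx2, whereas each of the other 21 held it. WT replicate 1 was the only WT library made with Cell Ranger 6.0.1, the others with 7.0.0 and the Prokr2Cre libraries with 6.1.2, and the part of the version in these values was not tested.

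The combination of Otx2, Rasgrp1, Robo3 and Prokr2 was found in single cells of WT captures, which were not used to draw the groups, and Otx2 was also found there without the other genes. A marker-positive cell of WT replicate 4, with all 5 marker genes, held 74 UMIs of Prokr2, 15 of Otx2, 31 of Rasgrp1, 9 of Robo3 and 40 of Sema3e. The same barcode in WT replicate 3 gave 80, 15, 31, 13 and 32 UMIs and counts as the same cell. In WT replicate 2 a marker-positive cell held 8 UMIs of Prokr2, 3 of Otx2, 14 of Rasgrp1 and 1 of Robo3, and a cell with 2 of the marker genes held 9, 4, 10 and 4. In Prokr2Cre library 1 a cell with 32 Prokr2 UMIs and 5 of Otx2 held neither Rasgrp1 nor Robo3. Marker-positive cells with Otx2 and no UMI of Prokr2, Rasgrp1 or Robo3 were 4 in WT replicate 1, with 1 to 14 Otx2 UMIs, and 1 in Prokr2Cre library 1, with 22. WT replicates 3 and 4 each gave 1, with 14 and 16 Otx2 UMIs, from 1 shared barcode that counts as the same cell. At least 5 UMIs of both Prokr2 and Rasgrp1 were found in 13 kept cells of library 2, 12 of them marker-positive, in 2 of WT replicate 2 and in 1 of WT replicate 4.

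A Gnrh1-rich cell was also found in WT replicate 2. It held 658 Gnrh1 UMIs among 8585, with 10 of Isl1, 3 of Six6 and 1 of Rasgrp1. As in the Gnrh1-rich cell of the sorted library, Prokr2, Gal, Lhx2 and Ebf1 had no UMI in it. Unlike that cell, which held 15 UMIs of Otx2 and 38 of Prph, it held none of either. In WT replicate 1 a cell with 1 of the 5 marker genes held 15 Gnrh1 UMIs among 30795, with 3 of Isl1 and none of Stmn2. These are values of single cells and no comparison of genotypes.

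**Figure D5:**
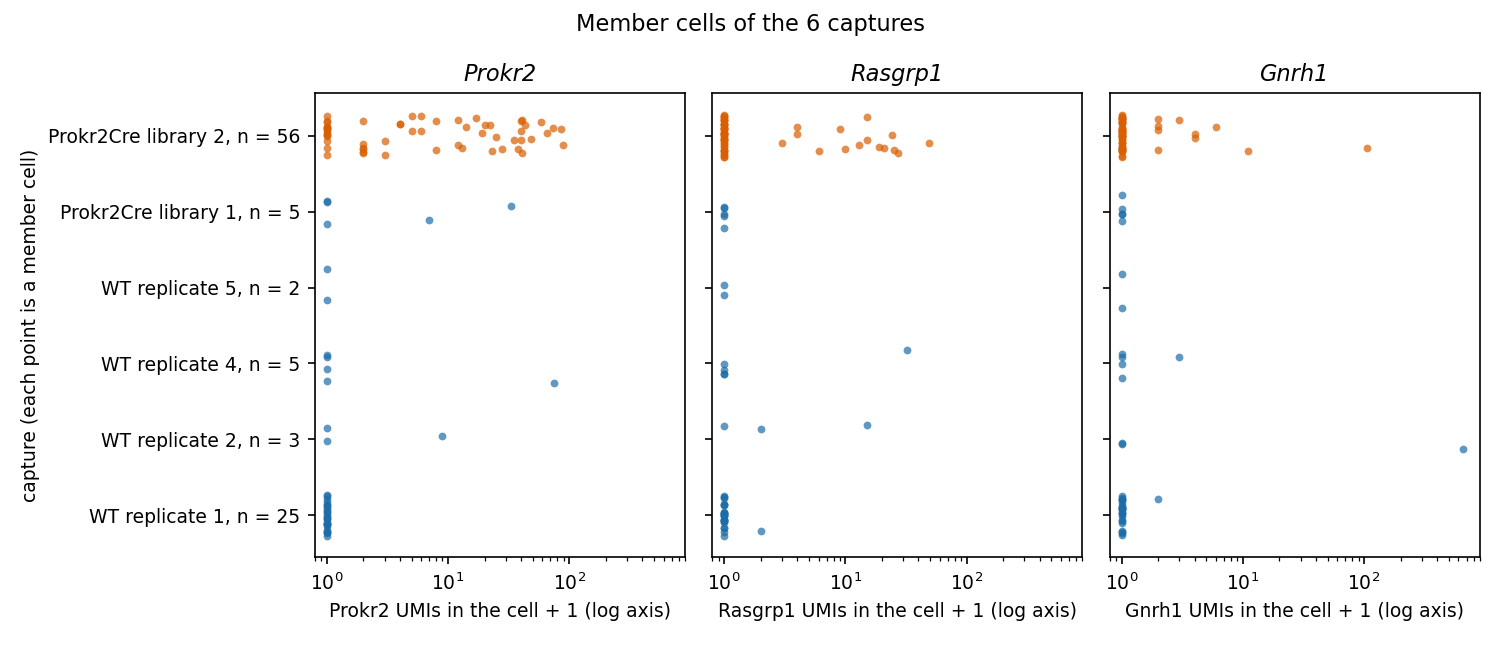
UMIs of Prokr2, Rasgrp1 and Gnrh1 (plus 1, log axes) in each marker-positive cell of the 6 captures, 1 point per cell with vertical scatter for legibility and Prokr2Cre library 2 in orange. The 25 cells of WT replicate 1 all lie at 0 Prokr2 UMIs, and the highest Gnrh1 value, 658 UMIs, is in WT replicate 2.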

How the data were processed

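Cells of dissociated, frozen and thawed noses were captured and 10x 3-prime libraries were made, per the labels' protocols. The deposited files hold raw UMI counts per gene and cell, with no normalization. Per the file headers they were made with Cell Ranger 6.0.1 (WT replicate 1), 7.0.0 (the other WT libraries) or 6.1.2 (Prokr2Cre), whereas the submitters' processing notes list Cell Ranger 4, Seurat 4.3.0 and mm10. Whether intronic reads were counted is not given in the sources used here. Kept cells had 500 or more genes and no more than 10% of UMIs from mt- genes. Library totals ran from 16773781 to 89800259 UMIs. Gene positions are from GENCODE M21. Sums and exact intervals were computed with python 3.11.15, numpy 2.4.6 and scipy 1.17.1, and the ratio calculation was tested on simulated counts.

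The members and gene lists were chosen with earlier results of these data known. Genes were named by rule: the marker genes and Prokr2, the 25 highest and 15 lowest ratios among genes with at least 50 CPM and a UMI in at least 50% of the cells of the higher class, up to 6 list genes past 4-fold, and the 10 most like Prokr2. Other genes of a list, and those of the groups drawn by Otx2 and Prokr2, were chosen after their values were seen. A level against 0 UMIs is a bound from 3 UMIs over the group. Cell filters, the marker rule, comparison cells, weighting, thinning and the CPM minimum were varied.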

Additional observations from a re-analysis of the deposited data

Results flagged for a closer look

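Dixon's rule for a value far from the others was applied to 3 measures over the 4 captures of WT noses. Chance gives about 1 such case in 20 groups. The share of kept cells with at least 3 of the 5 marker genes was 0.321% in WT replicate 1, and the next highest was 0.0711%, a gap of 0.854 of the range. This was also the only WT library made with Cell Ranger 6.0.1. Gnrh1 UMIs over all kept cells were 692 in WT replicate 2 and at most 79 in the other WT captures, a gap of 0.901 of the range, and 658 of the 692 lay in 1 cell.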

How the results depend on the processing

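No paired analysis was possible because the comparison lies within 1 library and no test was run. Apart from Prokr2, 68 named genes were followed over 12 settings: 491 ratios stayed within the interval of the reported ratio, 300 left it, and 24 of genes at least 4-fold apart lay on the other side of 1. These 24, given below, include 4 bounds against 0 UMIs. The cause of these shifts was not tested.

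With at least 4 of the marker genes, 24 cells remained, 98 genes were 4-fold higher and Prokr2 was at 9.94. With at least 2 UMIs of 3 genes the values were 27, 102 and 11.2. Without members that held Gng8 and Gap43, 5 cells gave 90 genes, Prokr2 at 0.599, Cpne5 at 0.666, Pde4d at 0.768, Gal at 0.641, Tmem158 at or under 0.978 (0 UMIs), Alk at 0.856, Mageh1 at 0.656 and Scg2 at 0.722, and the counting intervals of all these ratios include 1. Against comparison cells with none of the genes (34 cells), 635 genes were higher and 601 lower, with Prokr2 at 83.2, Calb2 at 2.53, Ebf4 at 2.41, Cartpt at least at 2.30 (0 UMIs), Pcdh11x at 1.35 and Nqo1 at 1.29. Against all cells with at least 5 Stmn2 UMIs, 79 were higher, 312 lower and Prokr2 at 15.2. Thinning to 2000 UMIs, a single draw, gave 89 higher and Prokr2 at 5.35. A minimum of 20 CPM gave 96 and 264 genes, and one of 200 CPM gave 11 and 7.

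Against comparison cells without Col1a1 or Col3a1, chosen after seeing the data, 23 genes were lower and Prokr2 was at 6.32. Of genes at least 4-fold apart, the ratios that crossed 1 were Fgfr1 1.83, Rora 1.12, Slit3 1.55, Sema5a 4.90, Epha3 1.99, Cdh11 2.75, Cacna2d3 3.09, Prrx1 1.55, Col1a2 2.58 and Twist1 15.5, with Col1a1 and Col3a1 at least at 5.15, a bound from 3 UMIs that follows from the choice of cells. Slit3 (0.0197 to 121), Cacna2d3 (0.443 to 34.2), Prrx1 (0.112 to 21.3), Col1a2 (0.501 to 16.6) and Twist1 (2.20 to 671) rest on 1 to 3 UMIs in the comparison cells. Of the genes less far apart, Nme2 at 1.78, Idh2 at 1.30 and Cdkn1c at 1.02 crossed it too. At 2000 UMIs per cell, genes of a few CPM could not be seen in single cells.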
